A study of Mus musculus with 3 samples.

Results

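The cells described here are S1pr1-positive NK cells, meaning NK cells from mouse tumors in which at least 1 mRNA molecule of *S1pr1* was counted. They were chosen by their counts of unique molecular identifiers (UMIs) for a few genes. A member held at least 1 UMI of *Ncr1*, at most 1 of *Cd3e*, at most 1 of *Cd8b1*, at most 3 of *Mki67* and *Top2a* together, at most 1 of *Rora*, and at least 1 of *S1pr1*. Of 34781 cell barcodes, 31943 cells had 1000 to 6000 genes and less than 7.5% mitochondrial UMIs, 7123 of these met the NK cell limits, and 851 were members. The other 6272 NK cells, with no *S1pr1* UMI, are called S1pr1=0 cells and serve as the comparison.

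The cells were tumor-infiltrating lymphocytes. The tumors were grown under the skin from MC38-Ova, a mouse colon adenocarcinoma line that expresses ovalbumin, in C57BL/6 mice carrying the Kaede transgene and otherwise wild type. The study's text names the tumors of its single-cell data MC38. Kaede fluoresces green until violet light converts it to red, so that cells present in the tumor at photoconversion become Kaede-red (KR+) and cells that enter later stay Kaede-green (KG+). Each mouse received 250000 tumor cells and isotype control treatment, photoconversion was on day 13 and harvest on day 15, 48 h later. The study's methods give a range of ages for its experimental mice as a whole, not for the animals of these libraries, and whether several animals were pooled in a library is not given in the sources used here. All 3 libraries share these conditions and differ in color: Kaede-green 1 and Kaede-green 2 are labelled as biological replicates, and KR+ cells made 1 library. No test between the colors was made. Sorting selected live CD45+ Kaede+ cells and discarded CD11b+ cells lacking NK1.1 per the labels, whereas the study's methods describe a gate on cells with little or no CD11b. CD11b is the protein encoded by *Itgam*, and under the second gate NK cells with much CD11b would be missing, so the shares of cells with *Itgam* below describe the sorted cells only. The study states that its gating took in all of the NK cells.

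Kaede-green 1 held 10498 barcodes and 87193225 UMIs, Kaede-green 2 held 12327 and 129438292, and Kaede-red held 11956 and 175848894. Kaede-green 1 gave 324 members, Kaede-green 2 gave 443 and Kaede-red 84. The median member held 6185, 7758 and 7351 UMIs in these libraries, against 5993, 7830 and 15347 in S1pr1=0 cells, so that in Kaede-red alone the members were much the shallower class. Libraries shared 20, 28 and 36 barcodes pairwise, and 0 barcodes were shared among members.

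S1PR1 is a receptor for sphingosine-1-phosphate, a lipid that is abundant in blood and lymph and scarce inside tissues, and lymphocytes follow it out of tissues into the circulation. The transcription factor KLF2 promotes *S1pr1* expression in resting lymphocytes, and the activation marker CD69 binds S1PR1 and draws it from the cell surface. NK cells also use S1PR5, and mature circulating NK cells carry CD11b, encoded by *Itgam*.

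Cells with an *S1pr1* UMI made up 13.4% of all NK cells of Kaede-green 1 (exact binomial 95% interval 12.1 to 14.8), 19.4% of those of Kaede-green 2 (17.8 to 21.1) and 3.46% of those of Kaede-red (2.77 to 4.27). These intervals cover counting error only. The Kaede-red share was below both Kaede-green shares, which differed from each other by more than their intervals. After each cell was thinned at random to 3000 UMIs, which left out 7, 3 and 1 shallower members and 66, 10 and 2 shallower S1pr1=0 cells, the shares were 8.28%, 10.2% and 1.53%. NK cells in which *Itgam* was counted were more often members (17.1%, 25% and 9.43%) than NK cells without an *Itgam* UMI (12.6%, 18.5% and 3.19%). With *S1pr1* and *Itgam* both classed on counts thinned to 3000 UMIs, these shares were 12.5% (35 of 279), 14.6% (24 of 164) and 9.80% (5 of 51) against 7.70%, 9.89% and 1.35%, and the exact intervals of the shares with and without *Itgam* overlapped in both Kaede-green libraries.

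Among other cells of the same tumors, an *S1pr1* UMI was found in 26.6% of CD8 T cells, 24.3% of regulatory T cells and 59.3% of B cells over all libraries, or 15.0%, 12% and 44.3% once thinned, against 11.9% and 6.58% of NK cells. These shares pool libraries that differed, and so depend on how many cells each library gave. CD8 T cells with and without a UMI were 883 and 1322 in Kaede-green 1, 940 and 1749 in Kaede-green 2, and 296 and 2771 in Kaede-red. Cycling NK cells held one in 4.00% of 475 cells, thinned 0.422% of 474, at a median of 33893 UMIs before thinning. Myeloid cells were counted as a rough gauge of background, though their own expression of the transcript was not tested. Of these, 6 of 136 (4.41%) held a UMI at a median of 14951.5 UMIs, and thinned 2 of 134 (1.49%). By library these were 1 of 25 cells (4%, exact interval 0.101 to 20.4), 2 of 71 (2.82%, 0.343 to 9.81) and 3 of 40 (7.5%, 1.57 to 20.4), in the order Kaede-green 1, Kaede-green 2, Kaede-red. Both Kaede-green shares of NK cells lay above the myeloid share of their own library, in Kaede-green 1 within its interval. The Kaede-red share of 3.46% lay below the myeloid share of its library, within its interval. Whether the *S1pr1* UMIs of Kaede-red NK cells came from expression or from free RNA was not tested. So few myeloid cells leave the background of each library poorly known, and thinned cycling NK cells, at 0.422%, lay below the thinned Kaede-red share of 1.53%.

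**Figure D1:**
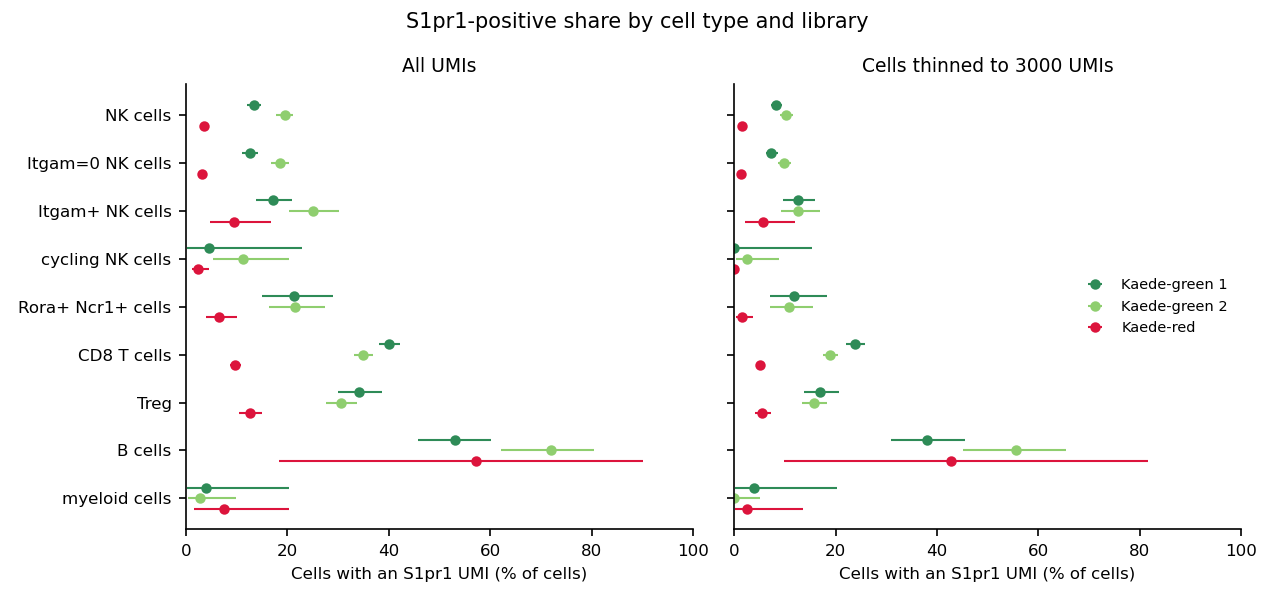
Share of cells with at least 1 *S1pr1* UMI, in % of cells (x axis), for each cell type (y axis) and library (color), with all UMIs (left) and after thinning each cell to 3000 UMIs (right). Points are shares and bars exact binomial 95% intervals; NK cells of Kaede-red (3.46%, thinned 1.53%) lie below both Kaede-green libraries (13.4% and 19.4%, thinned 8.28% and 10.2%).

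Most members stood at the limit of the rule: 576 held exactly 1 *S1pr1* UMI, 158 held 2 and 117 held 3 or more. Just outside the other limits, 1186 cells met everything but had no *Ncr1* UMI, beside 377 members with exactly 1. A second *Cd3e* UMI kept out 55 cells, beside 130 members with 1, and a second *Rora* UMI kept out 41, beside 128 members with 1. Levels are given in CPM (the UMIs of a gene summed over the cells of a class, relative to all UMIs of that class, not per gene length), and are compared only within a gene. In Kaede-green 1, *Klf2* was at 274 CPM in S1pr1=0 cells and at 393, 506 and 274 CPM in members with 1, 2 and 3 or more *S1pr1* UMIs. The same classes of Kaede-green 2 stood at 247, 274, 450 and 509 CPM, and those of Kaede-red at 60.3, 161, 268 and 113 CPM. *Klf2* thus did not follow the number of *S1pr1* UMIs in the same order in each library.

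Defining genes of NK cells were present in the members of every library. *Klrb1c*, which encodes NK1.1, was at 401, 315 and 292 CPM in the first and second Kaede-green and the Kaede-red library, *Eomes*, the transcription factor of conventional NK cells, at 314, 284 and 159 CPM, and *Fcgr3*, the IgG receptor CD16, at 58.9, 42.3 and 49.0 CPM. *Prf1*, which encodes perforin, was at 586, 594 and 642 CPM. An *Itgam* UMI was found in 166 of the 851 members, and *Cma1*, a chymase gene of mature mouse NK cells, was counted in 61 of 324, 60 of 443 and 4 of 84 members. At this depth a cell with 0 UMIs of a gene of this level may still express it.

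*S1pr1* lies on the minus strand at chr3:115710433-115715072 and *Klf2* on the plus strand at chr8:72319033-72321656 in GRCm38, the build of the files (mm10), with the positions from GENCODE. *Itgam* is at chr7:128062640-128118491, where the annotated gene Gm49368 overlaps it on the same strand, so its reads may be shared with that gene. *Cma1* and *Gzmb*, serine protease genes of the same chromosome region, are at chr14:55941451-55944675 and chr14:56258838-56262260. Because KLF factors bind CACCC boxes, the promoters of *Klf2*, *Itgam* and *Cxcr4*, each higher in members in all 3 libraries as described below, are shown as RefSeq gives them for GRCm38.p6, with 250 bases before and 50 after the start of the gene, 5′ to 3′. Capitals mark CACCC or its complement GGGTG. The windows are chr8:72318812-72319111 (plus strand), chr7:128062390-128062689 (plus) and chr1:128592250-128592549 (minus).
Klf2: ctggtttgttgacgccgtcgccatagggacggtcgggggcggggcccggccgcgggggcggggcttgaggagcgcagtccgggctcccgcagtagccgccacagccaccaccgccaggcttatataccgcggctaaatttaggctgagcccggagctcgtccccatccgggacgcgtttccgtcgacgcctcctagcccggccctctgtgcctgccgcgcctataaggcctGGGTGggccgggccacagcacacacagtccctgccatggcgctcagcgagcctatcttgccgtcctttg
Itgam: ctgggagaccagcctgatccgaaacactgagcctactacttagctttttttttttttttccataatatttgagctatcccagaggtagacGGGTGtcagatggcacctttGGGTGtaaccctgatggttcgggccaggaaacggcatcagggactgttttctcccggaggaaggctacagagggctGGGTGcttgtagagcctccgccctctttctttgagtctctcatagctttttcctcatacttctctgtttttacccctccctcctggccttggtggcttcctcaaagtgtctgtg
Cxcr4: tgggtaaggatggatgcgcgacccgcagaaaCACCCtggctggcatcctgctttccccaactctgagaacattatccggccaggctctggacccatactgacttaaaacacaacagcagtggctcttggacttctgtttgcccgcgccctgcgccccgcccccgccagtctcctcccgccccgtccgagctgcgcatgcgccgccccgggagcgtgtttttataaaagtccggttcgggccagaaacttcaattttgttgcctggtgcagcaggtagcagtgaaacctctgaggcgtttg
The window of *Klf2* holds 1 such box, that of *Itgam* 3, that of *Cxcr4* 1, and that of *Cma1* 0. Of 32851 promoter windows of this length, 57.5% hold at least 1 box, 25.7% hold 2 or more and 9.3% hold 3 or more. The entries for *S1pr1* and *Ccl5* were not used here.

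To ask how NK cells with and without *S1pr1* differed, UMIs were summed per library and class and tested with the library as a block. As a share of UMIs, S1pr1-positive cells were higher in the quiescence factor *Klf2*, the trafficking genes *Cxcr4* and *Rasgrp2* and the chemokine *Ccl5*. They were lower in *Gzmb*, *Prf1* and *Xcl1*, in 9 of 19 interferon-stimulated genes and in 9 of 22 genes of glycolysis and hypoxia. By DESeq2, an alternative test, *Rasgrp2* passed but *Klf2*, *Cxcr4* and *Ccl5* did not. Among cells of a narrower range of depth, *Klf2* did not pass either, as given below. *Klf2* was on lists chosen with earlier results of these data known. Of 10903 genes tested, 531 (4.87%) were higher in members and 738 (6.77%) lower at an adjusted p under 0.05 by edgeR's quasi-likelihood test, with the 7 genes of the rule left out. The median log2 fold change of all genes was 0.00. A value after ± is a standard error (SE) from the fit, whose variance is shared in part across genes. It does not measure the spread between libraries. The sums came from 3 libraries, so each value below rests on 3 pairs of sums. It is not given whether Kaede-red came from the same mice as a Kaede-green library. The 3 pairs are therefore not known to be independent.

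Among 17 genes of S1P receptors and egress, 8 were higher and 2 lower in members, with a median log2 fold change of 0.35. *Klf2* was at 401, 342 and 168 CPM in members of the 3 libraries (Kaede-green 1, then Kaede-green 2, then Kaede-red, an order kept below), against 274, 247 and 60.3 CPM in S1pr1=0 cells. Expression was higher in members of each library, although Kaede-red members stayed below the S1pr1=0 cells of both Kaede-green libraries, and the log2 fold change was 0.64 ± 0.10 (SE, adjusted p = 0.00028). *Cxcr4*, the receptor for CXCL12 and a bone marrow homing receptor, was at 510, 398 and 231 CPM against 392, 282 and 86.3 CPM (0.60 ± 0.10, adjusted p = 0.00062). *Rasgrp2*, an activator of the small GTPase RAP1 in integrin signaling, was at 37.0, 29.9 and 7.63 CPM against 17.2, 13.9 and 3.86 CPM (1.03 ± 0.14, adjusted p = 4.8e-05). The Kaede-red value of members rests on 7 UMIs. *Rasa3*, a RAP1 inhibitor, was also higher (0.59 ± 0.10). *Cd69* was at 217, 169 and 91.5 CPM in members and at 254, 218 and 141 CPM in S1pr1=0 cells, a log2 fold change of -0.43 ± 0.07 (adjusted p = 0.00045). *S1pr5*, the other S1P receptor of NK cells, was scarce in both classes, at 5.35, 2.47 and 7.63 CPM against 5.24, 2.17 and 1.13 CPM, and did not pass the test (0.53 ± 0.43, adjusted p = 0.50). Without Kaede-red the log2 fold change of *Cxcr4* was 0.38, and among cells of 5000 to 10000 UMIs that of *Klf2* was 0.18, which did not pass the test (adjusted p = 0.29). By DESeq2, *Cd69* and *Rasgrp2* passed, but *Klf2* (adjusted p = 0.28) and *Cxcr4* (adjusted p = 0.15) did not.

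**Figure D2:**
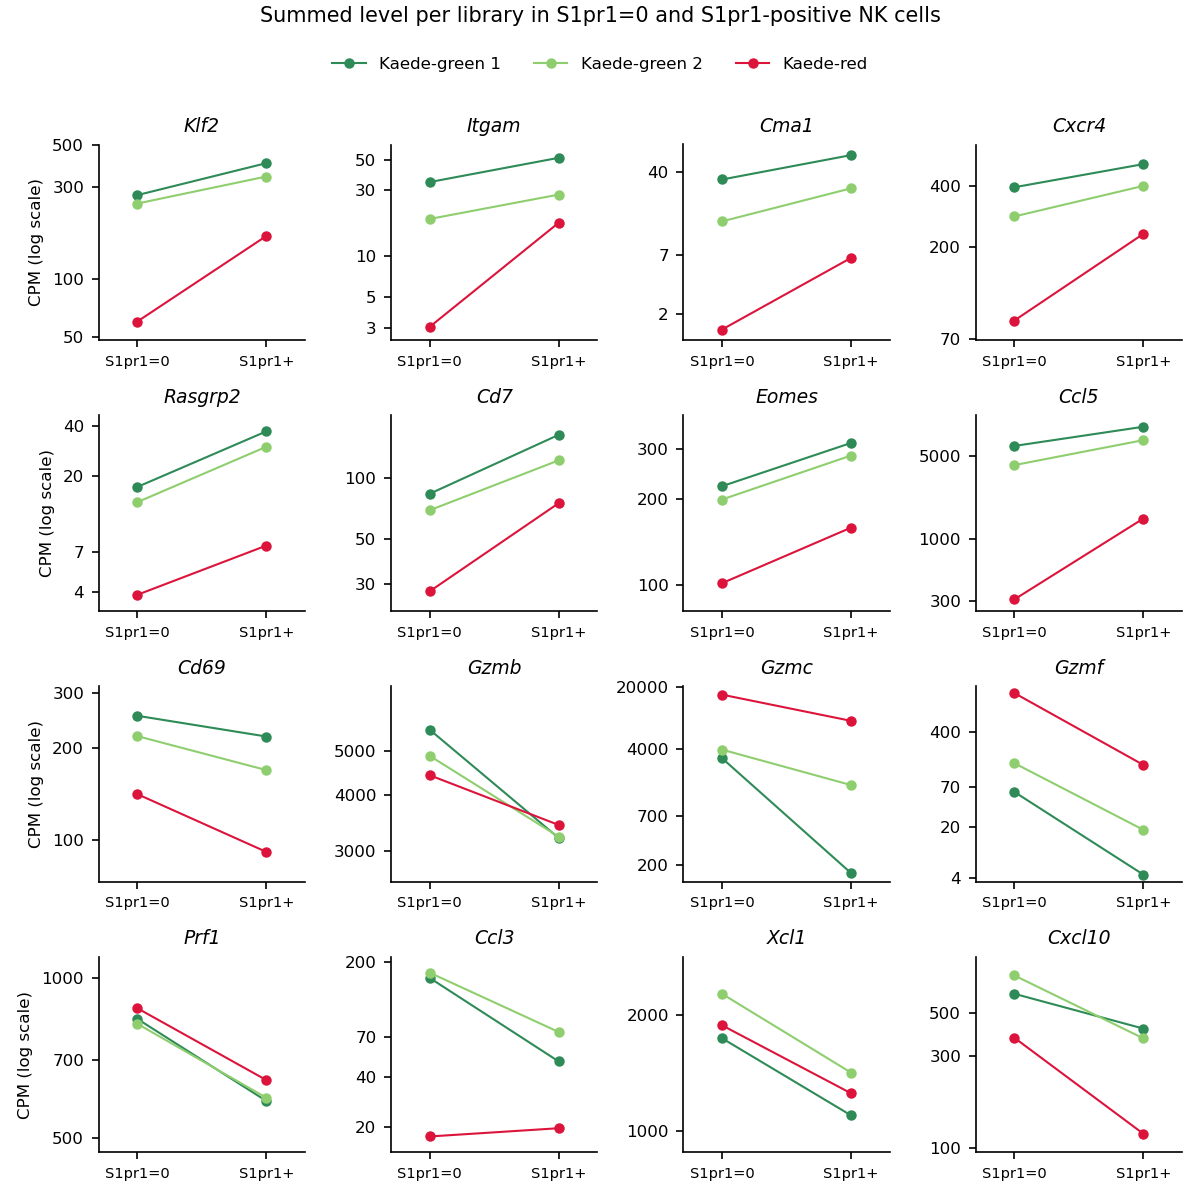
Level of 16 genes in CPM (y axis, log scale, set for each gene) in S1pr1=0 and S1pr1-positive NK cells (x axis), 1 line per library. Each point is a sum over cells of 1 library; the upper 8 genes are higher in members of all 3 libraries, and of the lower 8 only *Ccl3* goes the other way in Kaede-red.

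Genes of quiescence and of the KLF and FOXO factors moved in 1 direction. Of 20 tested, 14 were higher in members and 0 lower, and all 20 had a positive log2 fold change, with a median of 0.40. *Klf2* belongs to this list as well as to the list of egress genes. *Cdkn1b*, which encodes the cell cycle inhibitor p27, was at 141, 136 and 81.7 CPM in members against 85.3, 90.3 and 49.8 CPM (0.59 ± 0.08, adjusted p = 2.5e-05). *Klf13* (0.44 ± 0.07) and *Foxp1*, a transcription factor of quiescent lymphocytes (0.43 ± 0.07), were higher in each library. *Tcf7* (0.41 ± 0.09) and *Lef1* (0.56 ± 0.11), which encode Wnt pathway factors of less differentiated lymphocytes, and *Klf3* (0.60 ± 0.12) were higher too, but *Tcf7* and *Klf3* did not pass the test without Kaede-green 1 (adjusted p = 0.06 and 0.079). *Il7r*, the interleukin 7 receptor, was at 17.8, 17.6 and 46.8 CPM against 9.83, 15.8 and 4.99 CPM. Its fold change of 1.01 ± 0.33 (adjusted p = 0.049) fell to 0.35 without Kaede-red, where 1 cell held 41.9% of the members' UMIs, and did not pass the test there (adjusted p = 0.20), nor by DESeq2 (adjusted p = 0.35).

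Maturation genes did not move as a group, with 6 of 17 tested higher and 4 lower in members. *Itgam* was at 51.7, 27.9 and 17.4 CPM against 34.5, 18.6 and 3.05 CPM (0.65 ± 0.17, adjusted p = 0.013), and *Cma1* at 56.7, 28.2 and 6.54 CPM against 33.9, 14.1 and 1.45 CPM (0.84 ± 0.14, adjusted p = 0.00047). The 16 *Itgam* and 6 *Cma1* UMIs of the Kaede-red members leave wide counting intervals there, 9.96 to 28.3 and 2.40 to 14.2 CPM. By DESeq2 *Itgam* did not pass (adjusted p = 0.34), nor did *Cma1* under a stricter exclusion of other cells' markers (adjusted p = 0.11). *Cd7*, a surface glycoprotein of T and NK cells, was at 164, 122 and 75.2 CPM against 83.7, 69.4 and 27.6 CPM (0.91 ± 0.09, adjusted p = 8.2e-07), and *Emb*, which encodes embigin, an adhesion molecule of early lymphoid cells, was 0.44 ± 0.06 higher. *Kit*, the stem cell factor receptor of immature NK cells, was lower (-0.65 ± 0.11), as was *Irf8*, a transcription factor of NK cell maturation and activation (-0.26 ± 0.05), at equal levels of 1253 and 1251 CPM in Kaede-red. *Klrg1*, a receptor of terminally mature NK cells, did not pass the test (-0.09 ± 0.18), nor did *Cd27*, a receptor of less mature ones (0.22 ± 0.07, adjusted p = 0.058). Among 19 lineage transcription factors 2 were higher and 3 lower, and *Eomes* was the more abundant of those that were higher, at 314, 284 and 159 CPM against 222, 200 and 102 CPM (0.47 ± 0.06, adjusted p = 3.4e-05). Of 18 tested tissue residency genes 0 were higher and 5 lower, among them *Itgav*, the αv integrin (-0.60 ± 0.10), and *Cd69*; *Itgav* did not pass the test without Kaede-green 2 (adjusted p = 0.061). *Itga1*, which encodes the residency integrin CD49a, was at 26.3, 28.9 and 53.4 CPM against 29.3, 31.2 and 69.8 CPM and did not pass it (-0.27 ± 0.11, adjusted p = 0.13).

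Effector genes did not all move the same way within a family. Of 20 cytotoxic granule genes, 10 were lower and 1 was higher in members. The higher one was *Gzmk*, at 20.1, 12.4 and 4.36 CPM against 8.45, 8.27 and 1.72 CPM (0.86 ± 0.21, adjusted p = 0.011), which did not pass the test without Kaede-green 1 (0.62, adjusted p = 0.33). *Gzmb* was at 3212, 3234 and 3433 CPM against 5582, 4884 and 4424 CPM (-0.66 ± 0.05, adjusted p = 8.8e-09), and every member sum was below every S1pr1=0 sum. *Prf1* was likewise lower in each library (-0.55 ± 0.05, adjusted p = 8.2e-08). *Gzmc* was at 162, 1572 and 8248 CPM against 3146, 3924 and 16218 CPM, a log2 fold change of -2.08 ± 0.33 (adjusted p = 0.00021) that was -1.23 without Kaede-green 1 and did not pass by DESeq2 (adjusted p = 0.33). *Gzmf* was at 4.46, 18.3 and 142 CPM against 60.4, 149 and 1362 CPM (-3.30 ± 0.09, adjusted p = 5.6e-17). The shares of cells with a *Gzmf* UMI were close, at 3.09%, 15.8% and 46.4% of members against 3.77%, 16.8% and 48.6% of S1pr1=0 cells. In Kaede-red 1 of the 84 members held 53.8% of the *Gzmf* UMIs, and among cells of 5000 to 10000 UMIs its fold change was -0.54 and did not pass the test (adjusted p = 0.14). *Gzmc* to *Gzmg* are neighboring near-copies, so reads may be split among them. *Gzma* stood apart at 9089, 8746 and 4674 CPM against 10222, 8457 and 3920 CPM (-0.03 ± 0.04, adjusted p = 0.72), and without Kaede-red it passed the test at -0.12.

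Of 16 chemokine and cytokine genes tested, 1 was higher and 4 were lower. *Ccl5* was at 8842, 6820 and 1491 CPM in members against 6096, 4205 and 311 CPM in S1pr1=0 cells (1.05 ± 0.17, adjusted p = 0.00028), and it was higher in members of each library. Without Kaede-red its fold change was 0.56 and still passed the test, but DESeq2 did not call it (adjusted p = 0.17). *Xcl1*, which encodes the attractant of cross-presenting dendritic cells, was at 1096, 1418 and 1252 CPM against 1742, 2277 and 1884 CPM (-0.72 ± 0.04, adjusted p = 7.2e-11), with a fall of similar size in the 3 libraries. *Ccl3* was lower in the fit over all 3 libraries (-1.36 ± 0.13, adjusted p = 5.1e-07). It was at 50 and 75.4 CPM against 161 and 173 CPM in the Kaede-green libraries but at 19.6 against 17.5 CPM in Kaede-red, and *Ccl4* behaved alike (-0.95 ± 0.13). By DESeq2 neither passed (adjusted p = 0.20 for *Ccl3* and 0.26 for *Ccl4*). *Ifng* did not pass the test (-0.19 ± 0.12, adjusted p = 0.37), but was at -0.43 and passed it without Kaede-red. Of 9 chemokine receptors tested, *Cxcr3* (0.60 ± 0.14) and *Cxcr4* were higher and 0 lower.

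Interferon-stimulated genes were lower in 9 of 19 tested and higher in 1, with a median of -0.28. The higher one was *Irf1*, a transcription factor of the interferon response (0.33 ± 0.08, adjusted p = 0.0069), which did not pass the test without Kaede-green 1 (adjusted p = 0.18). *Cxcl10*, an interferon-induced chemokine, was at 416, 370 and 119 CPM against 630, 784 and 373 CPM (-1.08 ± 0.10, adjusted p = 3.0e-07), *Isg15* was lower by a smaller step (-0.43 ± 0.06) and *Rsad2*, which encodes viperin, by -0.56 ± 0.09. Glycolysis and hypoxia genes were lower in 9 of 22 and higher in 1, *Vegfa*, the vascular growth factor (0.19 ± 0.06, adjusted p = 0.030), with a median of -0.40. *Gapdh* was at 938, 1067 and 1614 CPM against 1397, 1357 and 2178 CPM (-0.53 ± 0.05, adjusted p = 1.4e-07), and *Pgk1* (-0.60 ± 0.06) and *Ldha* (-0.47 ± 0.05), which act later in glycolysis, were lower in each library. While members were lower in *Gapdh* and *Cxcl10* within each library, across colors Kaede-red sums were higher in *Gapdh* and lower in *Cxcl10* than Kaede-green sums of the same class. Ribosomal protein genes were lower in 52 of 82 tested and higher in 1, by a small median of -0.13.

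**Figure D3:**
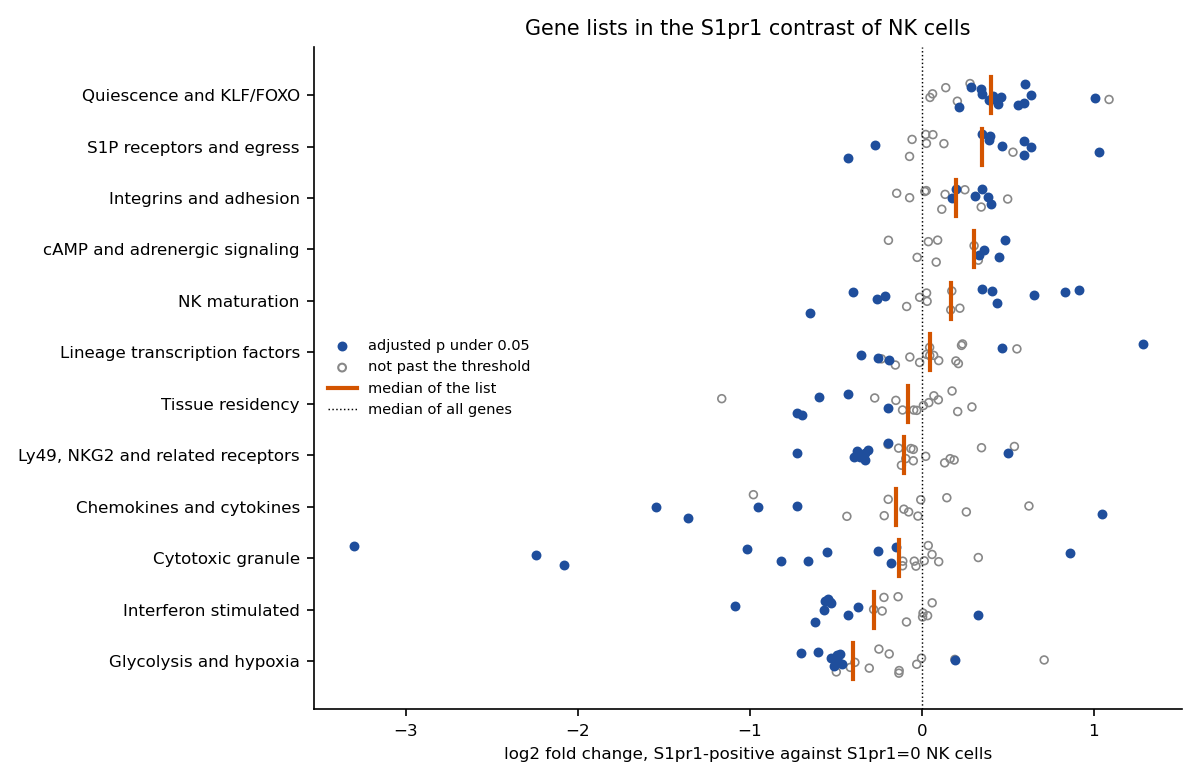
log2 fold change between S1pr1-positive and S1pr1=0 NK cells (x axis) of each tested gene in 12 lists (y axis). Filled points passed an adjusted p of 0.05, open points did not, orange bars are list medians and the dotted line the median of all genes; the medians run from 0.40 (quiescence and KLF/FOXO) to -0.40 (glycolysis and hypoxia).

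Integrins and adhesion molecules were higher in 6 of 15 and lower in 0, including *Itgb7* (0.40 ± 0.07) and *Itga4* (0.38 ± 0.08), which form the gut homing integrin. Genes of cAMP and adrenergic signaling were higher in 4 of 11 and lower in 0, for example the phosphodiesterase *Pde4d* (0.49 ± 0.10). Ly49, NKG2 and related receptors were lower in 8 of 22 and higher in 1, *Fcgr3* (0.50 ± 0.10, and not past the test without Kaede-green 1, adjusted p = 0.089), with *Klrd1*, which encodes CD94, among the lower ones (-0.33 ± 0.05). *Lag3* was the only lower gene of 12 inhibitory receptors (-0.84 ± 0.16) and 0 were higher. Cytokine receptors were higher in 2 and lower in 1 of 17, immediate early genes higher in 6 of 18 and lower in 0, heat shock genes higher in 0 of 10 and lower in 3, and actin and motility genes higher in 4 of 20 and lower in 8.

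Outside the lists, the rule for the largest changes (10 each way, the same sign in each library and a mean of at least 20 CPM) named the uncharacterized *Gm26740* (1.22 ± 0.22), *Gramd3* (0.97 ± 0.08), *Dhrs3*, a retinal reductase (0.94 ± 0.10), *Ccdc117* (0.93 ± 0.14), *Arl5c* (0.91 ± 0.12) and *Arhgef18*, a guanine nucleotide exchange factor (0.90 ± 0.12), as higher in members. Of these, *Gramd3* was the most abundant, at 252, 197 and 130 CPM against 114, 111 and 54.7 CPM. Lower were *Upp1*, a uridine phosphorylase (-1.28 ± 0.19), *Zbtb32*, a transcription factor of activated NK cells (-1.19 ± 0.14), *Gm36723* (-1.13 ± 0.12), *Ifi211*, an interferon-inducible gene (-1.0 ± 0.13), and *Igflr1* (-0.98 ± 0.16, and -1.48 without Kaede-green 2). The rule also named *Igkc*, *Ccl5*, *Cd7* and *Cma1* among the higher genes and *Gzmf*, *Gzmg*, *Gzmc*, *Cxcl10* and *Gzmd* among the lower ones. Without a limit on *Rora*, *Upp1* was at -0.30 and did not pass the test.

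Markers of other cell types moved with the contrast in the Kaede-green libraries. *Igkc*, the immunoglobulin light chain constant gene, was at 62.9, 116 and 1.09 CPM in members against 8.65, 20 and 0.910 CPM in S1pr1=0 cells (2.56 ± 0.13, adjusted p = 2.2e-11), and the B cell receptor gene *Cd79a* was at 21.9, 35.4 and 0 CPM against 3.21, 3.36 and 0.0246 CPM. The class II genes *Cd74* (403, 493 and 1.09 CPM against 126, 244 and 28.3 CPM) and *H2-Aa* (185, 185 and 3.27 CPM against 47.4, 95.5 and 5.29 CPM) followed them, at log2 fold changes of 1.04 ± 0.20 and 1.29 ± 0.15 that were 0.52 and 0.81 without Kaede-green 1, and 4 of the 5 tested B cell markers and 7 of the 12 tested myeloid and dendritic cell markers were higher in members. The 10 B cell markers summed to 204, 298 and 148 CPM in members and to 106, 128 and 173 CPM in S1pr1=0 cells, and the 16 myeloid and dendritic cell markers to 1055, 1559 and 142 CPM against 428, 759 and 237 CPM. Their most abundant genes among members were *Ighm* at 90.1 CPM, *Igkc* at 116 CPM and *Ighm* at 145 CPM for the B cell list, and *Cd74* in both Kaede-green libraries and *Cst3* (122 CPM) in Kaede-red for the myeloid list. In Kaede-red members the defining B cell genes *Cd79a*, *Cd79b* and *Ms4a1* were at 0, and *S100a8* and *S100a9* were at 0 in the members of all libraries. *Igkc* sat in few cells, 8 of 324 members in Kaede-green 1, where 1 cell held 36.9% of its UMIs, and 37 of 443 in Kaede-green 2, where another held 34.2%. *Cd74* was more widely found, in 30 of 324 and 178 of 443 members. Among the 11 tested T cell markers 3 were higher and 0 lower in members, including *Cd3d* (0.78 ± 0.13, and 0.49 without Kaede-green 1), and the T cell markers, led by *Trbc1* (675, 678 and 580 CPM), summed to 1321, 1342 and 1062 CPM against 1183, 1242 and 940 CPM. Of the remaining marker lists, ILC markers were higher in 0 and lower in 0 of 5 tested, mast cell or basophil markers lower in 2 of 2 (*Mcpt8* and *Kit*), and endothelial, stromal, tumor and red cell markers lower in 1 of 2. The 9 mast cell or basophil markers, *Kit* among them, summed to 22.7, 38.1 and 28.3 CPM in members against 33.9, 192 and 40.9 CPM. In the S1pr1=0 cells of Kaede-green 2 the most abundant of these was *Mcpt1*, at 82.6 CPM.

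When cells with any UMI of a set of B cell and myeloid markers were left out, among them *Cd79a*, *Ms4a1*, *Ighd*, *C1qa*, *C1qb*, *C1qc*, *Csf1r*, *Siglech*, *H2-Aa* and *H2-Ab1*, 285, 231 and 73 members remained, and 277 genes were higher and 388 lower. *Igkc* was then at -0.12 and *Cd74* at -0.32, neither of which passed the test. Of the 531 higher genes of the full comparison 257 were among these 277, and of the 738 lower genes 367 were among the 388. Of those still tested, 477 of 483 higher and 733 of 733 lower genes kept their sign. *Itgam* was at 0.67 but no longer passed the test (adjusted p = 0.078).

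The comparison was repeated within NK cells without an *Itgam* UMI, 247, 364 and 74 members against 1721, 1600 and 2246 S1pr1=0 cells. At this depth such cells may still express *Itgam*, so this does not separate *S1pr1* from maturation. Of 10553 genes tested, 432 (4.09%) were higher and 518 (4.91%) lower in members. *Klf2* (0.68 ± 0.10, adjusted p = 0.00044), *Cma1* (0.81 ± 0.18), *Cxcr4* (0.62 ± 0.10), *Rasgrp2* (1.08 ± 0.18), *Cd7* (0.94 ± 0.09) and *Ccl5* (1.07 ± 0.17) were higher, and *Gzmb* (-0.65 ± 0.05), *Prf1* (-0.61 ± 0.05), *Ccl3* (-1.76 ± 0.14) and *Cxcl10* (-1.0 ± 0.11) lower. In Kaede-red *Cma1* went the other way, at 1.18 CPM in members against 1.39 CPM in S1pr1=0 cells. Without Kaede-green 1 or without Kaede-green 2, *Cma1* did not pass the test (adjusted p = 0.10 and 0.21), and without Kaede-red *Ccl5* was at 0.60. By DESeq2, *Klf2* (adjusted p = 0.091), *Cxcr4* (0.13), *Ccl5* (0.14) and *Ccl3* (0.098) did not pass. Quiescence genes were higher in 11 of 20 and lower in 0, egress genes higher in 7 and lower in 1 of 17, cytotoxic granule genes higher in 1 and lower in 9 of 20, and interferon-stimulated genes higher in 1 and lower in 9 of 19. In Kaede-green 1, *Klf2* was at 404 CPM in cells with both transcripts, 400 CPM with *S1pr1* alone, 439 CPM with *Itgam* alone and 246 CPM with neither. In Kaede-green 2 the same 4 classes stood at 391, 332, 285 and 243 CPM, and in Kaede-red at 329, 154, 152 and 57.9 CPM. *Klf2* was thus lowest in each library in cells with neither transcript. *Ccl5*, at 13157, 7508, 12782 and 4981 CPM in the same classes of Kaede-green 1, was higher in both classes with *Itgam* than in both without, as it also was in Kaede-green 2 (10809, 6024, 8986 and 3643 CPM) and Kaede-red (4650, 1231, 1929 and 267 CPM).

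A cell with more UMIs has a greater chance of showing *S1pr1*, so the comparison was made once more with each cell thinned to 3000 UMIs and *S1pr1* classed on the thinned counts. This left 194, 232 and 37 members, and of 9308 genes tested 89 (0.956%) were higher and 162 (1.74%) lower. *Klf2* (0.53 ± 0.11, adjusted p = 0.00034), *Itgam* (0.76 ± 0.21), *Cma1* (0.96 ± 0.21), *Cxcr4* (0.65 ± 0.11), *Rasgrp2* (1.21 ± 0.27), *Cd7* (0.69 ± 0.15) and *Ccl5* (0.99 ± 0.13) were again higher. Lower were *Cd69* (-0.49 ± 0.13), *Gzmb* (-0.97 ± 0.12), *Gzmc* (-2.82 ± 0.14), *Gzmf* (-2.31 ± 0.22), *Prf1* (-0.53 ± 0.11), *Ccl3* (-1.61 ± 0.16), *Ccl4* (-1.72 ± 0.12) and *Cxcl10* (-1.68 ± 0.13). A *Klf2* UMI was found in 53.1% of thinned members against 44.2% of thinned S1pr1=0 cells in Kaede-green 1, in 50% against 42.1% in Kaede-green 2 and in 40.5% (15 of 37) against 17.2% in Kaede-red. In Kaede-red a *Cxcr4* UMI was found in 59.5% (22 of 37) of thinned members against 27.8% of thinned S1pr1=0 cells, and a *Ccl5* UMI in 67.6% (25 of 37) against 33.2%. A *Gzmf* UMI was found there in 27.0% (10 of 37) of thinned members against 19.6% and a *Cd69* UMI in 29.7% (11 of 37) against 27.7%, both the opposite direction to the log2 fold change. Quiescence genes were higher in 6 of 20 and lower in 0, cytotoxic granule genes lower in 6 of 19 and higher in 0, and interferon-stimulated genes lower in 9 of 19 and higher in 0. Immediate early genes, higher in 6 of 18 before, were higher in 0 and lower in 3. Ribosomal protein genes, lower in 52 of 82 before, were lower in 9 of 82 and higher in 0, with a median of -0.22. Several smaller lists lost calls: integrins and adhesion molecules were higher in 1 of 15 (*Itgb7*), cAMP and adrenergic genes in 0 of 10, Ly49, NKG2 and related receptors were lower in 1 of 22 and higher in 0, and actin and motility genes higher in 0 of 20 and lower in 1. *Itga4* (0.35, adjusted p = 0.10), *Pde4d* (0.57, adjusted p = 0.064), *Klrd1* (-0.34, adjusted p = 0.064), *Fcgr3* (0.60, adjusted p = 0.087) and *Lag3* (-0.62, adjusted p = 0.37) did not pass the test, and the lower gene of the 10 inhibitory receptors tested was *Cd160*. *Itgam* passed the test neither with another random draw (0.35) nor without any 1 of the libraries (0.58 to 1.05), and *Klf2*, *Cma1*, *Cd69* and *Prf1* did not pass it without either Kaede-green library (*Klf2* 0.70 without Kaede-green 1 and 0.56 without Kaede-green 2), nor *Rasgrp2* without Kaede-green 2 (1.06). Without Kaede-red, *Ccl5* was at 0.43 and *Cxcr4* at 0.43, both past the test. By DESeq2, *Cma1* (adjusted p = 0.14), *Cd69* (0.24), *Ccl5* (0.54), *Cd7* (0.052) and *Itgam* (0.19) did not pass.

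**Figure D4:**
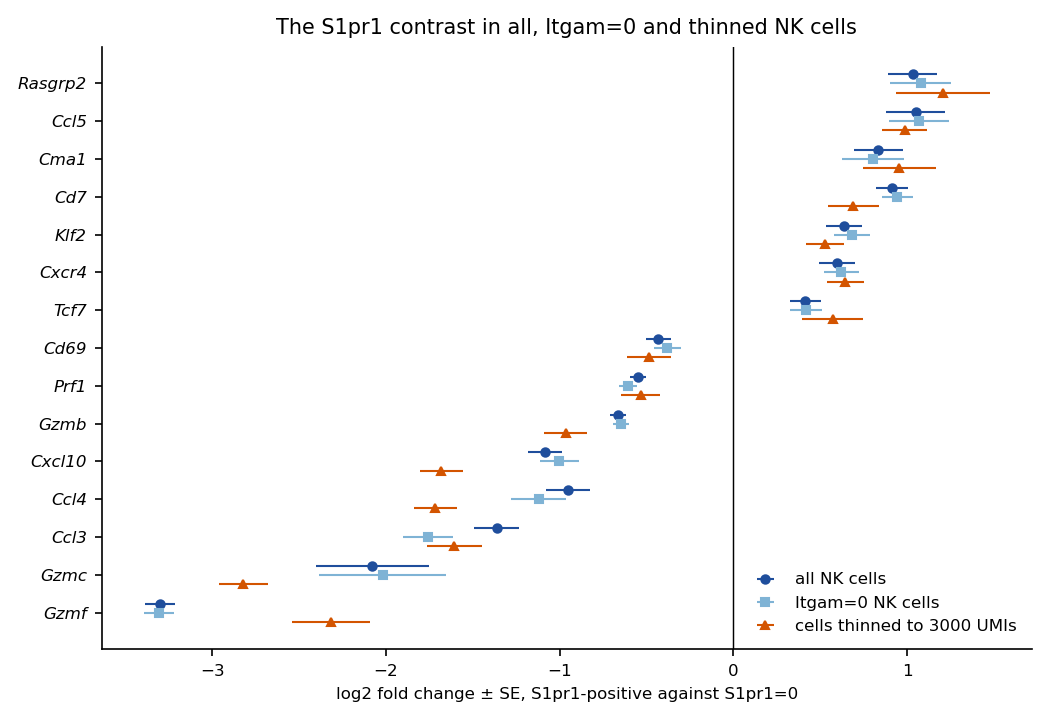
log2 fold change with its standard error (x axis) of 15 genes (y axis) between S1pr1-positive and S1pr1=0 cells, among all NK cells, NK cells without an *Itgam* UMI and NK cells thinned to 3000 UMIs. The 3 comparisons share cells; each gene has the same sign in all of them, from *Rasgrp2* (1.03, 1.08 and 1.21) to *Gzmf* (-3.30, -3.31 and -2.31).

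Whether the contrast was that of any lymphocyte with *S1pr1* was tested against CD8 T cells of the same libraries, 883, 940 and 296 with and 1322, 1749 and 2771 without an *S1pr1* UMI. The test of the difference found 442 of 11921 genes (3.71%) with a higher and 491 (4.12%) with a lower log2 fold change in NK cells than in CD8 T cells. *Klf2*, *Klf3*, *Tcf7* and *Lef1* changed less in NK cells. *Klf2* differed by 0.64 ± 0.17 in NK cells and by 2.16 ± 0.16 in CD8 T cells, a difference of -1.52 ± 0.23 (adjusted p = 0.00069). *Tcf7* (-1.84 ± 0.25), *Lef1* (-1.81 ± 0.16) and *Klf3* (-1.61 ± 0.37) showed differences of the same kind, that of *Klf3* not past the test without Kaede-green 2 (adjusted p = 0.074). The CD8 T cells without *S1pr1* stood low in *Klf2*, at 159, 116 and 49.7 CPM, and those with it at 492, 452 and 363 CPM. *Cd69* went opposite ways, -0.45 ± 0.10 in NK cells and 0.55 ± 0.08 in CD8 T cells (-0.99 ± 0.13, adjusted p = 0.00021).

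Effector genes separated the cell types less evenly. *Prf1* was lower with *S1pr1* in both, by less in NK cells (-0.57 ± 0.09 against -1.75 ± 0.09, a difference of 1.19 ± 0.13), as was *Irf8* (-0.28 ± 0.07 against -1.49 ± 0.08, a difference of 1.22 ± 0.10), and *Gzme* was at -0.86 in NK cells, not past the test in this fit, and at -4.20 in CD8 T cells on the log2 scale (difference 3.34 ± 0.44), reads of *Gzme* being shared with its near-copies. *Cd7* differed by -0.72 ± 0.21 (adjusted p = 0.048), which did not pass the test without Kaede-green 2 (adjusted p = 0.31). For *Rasgrp2* (-0.22 ± 0.15, adjusted p = 0.47), *Ccl5* (0.48 ± 0.29, adjusted p = 0.39), *Cxcr4* (-0.67 ± 0.28, adjusted p = 0.18) and *Gzmb* (0.35 ± 0.18, adjusted p = 0.28) the difference between the cell types did not pass the test, which does not show that they were alike. For *Cxcr4* it did pass without Kaede-green 1 (-0.83) or without Kaede-red (-0.50), and for *Gzmb* without Kaede-green 2 (0.64). The contrast of *Cma1* was 0.84 in NK cells and -2.17 in CD8 T cells (difference 3.01 ± 0.76, adjusted p = 0.021), but the difference was -0.12 without Kaede-red and 4.53 without Kaede-green 1. Of 20 quiescence genes 0 had a higher and 7 a lower contrast in NK cells, of 17 egress genes 0 and 6, of 20 cytotoxic granule genes 7 and 1, and of 19 interferon-stimulated genes 0 and 14.

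**Figure D5:**
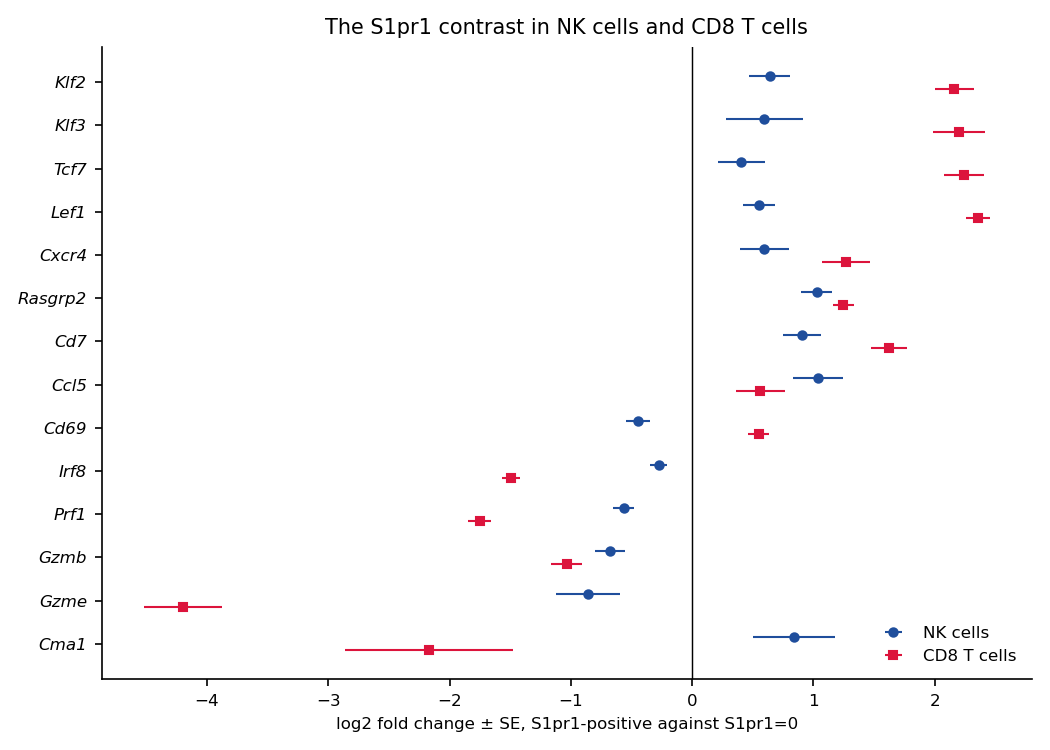
log2 fold change with its standard error (x axis) between S1pr1-positive and S1pr1=0 cells for 14 genes (y axis) in NK cells and CD8 T cells. *Klf2*, *Klf3*, *Tcf7* and *Lef1* lie between 0.40 and 0.64 in NK cells and between 2.16 and 2.36 in CD8 T cells, and *Cd69* has opposite signs.

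Members of the 2 colors were described without a test, since KR+ members came from 84 cells of 1 library. Kaede-red members held less *Klf2* (168 CPM, Poisson 95% interval 142 to 196, for counting error only, with 24.7% of these UMIs in 1 cell) than members of Kaede-green 1 (401, 375 to 428) and Kaede-green 2 (342, 324 to 360), less *Ccl5* (1491 CPM against 8842 and 6820) and less *Eomes* (159 CPM against 314 and 284). They held more *Gzmc* (8248 CPM against 162 and 1572), of which 1 cell carried 24.4%, more *Hopx*, a transcriptional cofactor of effector lymphocytes (208 CPM against 107 and 134), and more *Itga1* (53.4 CPM, 39.5 to 70.6, against 26.3 and 28.9). *Gzmb* was nearly level at 3433 CPM against 3212 and 3234. For *Klf2*, *Ccl5*, *Eomes* and *Itga1* the step from Kaede-red to the nearer Kaede-green library exceeded the step between the Kaede-green libraries, and in *Klf2* and *Ccl5* Kaede-red members also lay below the S1pr1=0 cells of both Kaede-green libraries (274 and 247 CPM, and 6096 and 4205 CPM).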

How the data were processed

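Droplet 3′ libraries (10x Genomics v3) of sorted tumor-infiltrating lymphocytes gave UMI counts per gene and cell, which the authors deposited unnormalized as 1 filtered matrix per library. The labels name Cell Ranger 6.1.2 and mm10, and the matrix header gives Cell Ranger 6.0.1. A cell was kept if it had 1000 to 6000 genes and its mitochondrial share was under 7.5%. Doublets were not called. UMIs were summed per library and class, filtered with filterByExpr and tested with edgeR 4.0.16 (TMM, quasi-likelihood F test, library as a block, Benjamini-Hochberg threshold 0.05) in R 4.3.3. The fit was first tried on simulated sums with the same relative spread for every gene. Those sums did not model single cells holding much of a gene's UMIs, so the trial does not check such genes. The study itself tested cells rather than libraries. Both classes of a library come from the same tumors, which is why the library pairs them. Thinning drew UMIs without replacement, to 3000 per cell. Named genes were the 10 largest changes each way with the same sign in 3 libraries and a mean of at least 20 CPM, plus the gene lists. Alternatives were DESeq2 1.42.0, RLE factors, no count filter, no block, other gates, depths and thresholds, and leaving out each library. The strict exclusion kept cells with no UMI of a set of T cell, B cell and myeloid markers, among them *Cd3e*, *Cd8b1*, *Cd3d*, *Cd3g*, *Trac*, *Cd79a*, *Ms4a1*, *C1qa*, *C1qb* and *Csf1r* (for CD8 T cells, the B cell and myeloid markers only). Some genes of the lists are counted but not reported here. The exclusions of B cell and myeloid markers, and the strict exclusion within Itgam=0, thinned and CD8 comparisons, were added after seeing the data. The members and lists were chosen with earlier results of these data known. The spread between libraries may be partly technical. With 87193225 to 175848894 UMIs per library, low genes in the 84 Kaede-red members rest on few UMIs. Positions came from GENCODE for GRCm38, where 99.8% of 32285 genes were found by ID.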

Additional observations from a re-analysis of the deposited data

Results flagged for a closer look

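The S1pr1 contrast of NK cells had the opposite sign in Kaede-red for a few genes, a difference between libraries that was not tested. There the log2 ratio of members to S1pr1=0 cells was 0.205 for *Ccl3*, 0.213 for *Ccl4* and 0.83 for *Ifng*, which were lower in members of both Kaede-green libraries, and 0.00312 for *Irf8*, which was level. It was -4.11 for *Cd74* and -0.476 for *H2-Aa*, which were higher in members of both Kaede-green libraries and rested on 1 and 3 UMIs in the Kaede-red members.

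The contrast also differed between NK cells and CD8 T cells by the test of the difference itself. The log2 difference, NK less CD8 T cells, was -1.52 for *Klf2*, -1.61 for *Klf3*, -1.81 for *Lef1*, -1.84 for *Tcf7*, -0.995 for *Cd69* and -0.719 for *Cd7*. It was 1.19 for *Prf1*, 1.22 for *Irf8*, 3.34 for *Gzme* and 3.01 for *Cma1*, the last of which depended on Kaede-red. Of these differences, 3 lost their call under the strict exclusion, and 3 lost it with cells thinned to 3000 UMIs.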

How the results depend on the processing

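Counts of called genes moved widely between settings, and 5 values of named genes turned sign. In the comparison of all NK cells, with 531 genes higher and 738 lower, there were 127 and 149 among cells of 5000 to 10000 UMIs, 113 and 136 with the same cells thinned to 3000 UMIs, 145 and 181 under the strict exclusion of other cells' markers (which left the myeloid markers of Kaede-green 1 at 1192 CPM in members against 421 CPM), 277 and 388 without B cell or myeloid marker UMIs and 181 and 325 by DESeq2, with 1139 lower when low counts were kept. Leaving out 1 library gave 228 to 719 higher and 309 to 825 lower, the fewest without Kaede-green 1. Among the named genes of this comparison, 20 lost their call among cells of 5000 to 10000 UMIs. With the same cells thinned to 3000 UMIs 16 lost it, and under the strict exclusion 14. By DESeq2 11 named genes lost their call, among them *Klf2* (0.75), *Cxcr4* (0.68), *Ccl5* (1.08), *Gzmc* (-2.18), *Ccl3* (-1.03), *Ccl4* (-0.78), *Il7r* and *Itgam* (1.10). These counts leave out named genes that were not tested in a setting or were given no adjusted p, which also had no call there. Signs turned for *Igkc* (-0.12) and *Cd74* (-0.32) without B cell or myeloid marker UMIs, *Cd74* by DESeq2 (-0.10) and *Ly6c2* under the strict exclusion (-0.051), none of which passed the test.

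Among Itgam=0 cells there were 54 higher and 71 lower under the strict exclusion, 287 higher without B cell or myeloid marker UMIs, 153 and 254 by DESeq2 and 978 lower with low counts kept, and leaving out 1 library gave 147 to 403 and 153 to 509. For thinned cells there were 14 and 52 at 2000 UMIs, 264 and 371 at 5000 UMIs, 10 and 39 under the strict exclusion, 43 and 96 without B cell or myeloid marker UMIs, 9 and 36 by DESeq2 and 50 higher with low counts kept, and leaving out 1 library gave 12 to 135 and 30 to 289. The difference from CD8 T cells had 166 higher and 276 lower under the strict exclusion, 81 and 77 once thinned, and 210 to 448 and 206 to 452 leaving out 1 library, where *Cma1* turned to -0.12 without Kaede-red and was 4.53 without Kaede-green 1.

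Without the replicate block edgeR called 0 genes higher and 0 lower in each of these comparisons of NK cells, while 558, 547 and 795 genes had an unadjusted p under 0.05 among all, Itgam=0 and thinned NK cells.

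The share of members in Kaede-green 1, Kaede-green 2 and Kaede-red was 8.28%, 10.2% and 1.53% at 3000 UMIs, 5.75%, 7.28% and 1.15% at 2000 UMIs, 4.10%, 6.71% and 0.948% with 2 or more *S1pr1* UMIs, and 15.0%, 21.8% and 4.6% with *Klrb1c* in place of *Ncr1*. Under the strict exclusion it was 15.0% in Kaede-green 2 and 4.54% in Kaede-red. The order of the libraries was the same in each. The cause of these changes was not tested.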
